A study of Homo sapiens with 3 samples.

Results

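HEK293 cells, a line from human embryonic kidney that the growth protocol names as HEK293T/17, were given RiboBright or its solvent, and the accessibility of their 28S ribosomal RNA was read out nucleotide by nucleotide. The RiboBright group received 10 µM of this probe for 30 min, and the DMSO group an equal volume of solvent for the same time. A group treated with 10 µM cycloheximide served here only as a further library beside named positions. Each group is 1 library. Every value below is therefore a size that no replicate checks, tests were not run, and a difference is one between libraries. The members are all adenosines and cytidines of 28S rRNA with a value in both RiboBright and DMSO, which were 1838 of 2492 (73.8%). They comprised 727 of 797 adenosines (91.2%) and 1111 of 1695 cytidines (65.5%). The files hold 28S rRNA alone, so markers of the cell line could not be checked. The dimethyl sulfate dose is not given in the sources used here.

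In dimethyl sulfate mutational profiling, the reagent methylates the base-pairing edge of adenosine and cytidine, and the reverse transcriptase writes a mutation opposite the methylated base. Bases that are paired, or covered by protein, tRNA or a bound small molecule, react less. The 28S rRNA forms most of the large ribosomal subunit: its domain V holds the peptidyl transferase centre, which joins amino acids, and the exit (E) site, through which spent tRNA leaves. Domain II carries the GTPase-associated centre, where elongation factors dock, and the sarcin-ricin loop of domain VI contacts the same factors. Expansion segments are long, GC-rich insertions that are found in eukaryotic rRNA. The signal averages all ribosomes of a culture, so a small change in every ribosome and a large change in some cannot be told apart.

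Sequences around the positions on which the comparison turns are given 5′ to 3′ from the deposited table, which writes T for U. Capitals mark the members described below. The first is the E-site cytidine, the next 4 lines hold positions with higher signal in RiboBright, and the last holds positions with lower signal.
C4341 (positions 4326 to 4356): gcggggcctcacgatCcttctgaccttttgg
A1868, A1874 and C1875 (1858 to 1885): acttttggtaAgcagaACtggcgctgcg
A1979 and A1983 (1969 to 1993): gacggtggccAtggAagtcggaatc
A3906 (3891 to 3921): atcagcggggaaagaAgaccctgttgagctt
A4213 and A4214 (4203 to 4224): acacctgtcaAAcggtaacgca
A2428 and A2429 (2418 to 2439): acagcagttgAAcatgggtcag
The numbering has 5070 nt. RNA28SN5 has that length in the RefSeq table for GRCh38.p14 and lies there on a sequence of unassigned chromosome (113348 to 118417). Copies on chromosomes 21 and 22 differ in length, and reads cannot be assigned to one copy.

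The values were first divided by how well their surroundings were measured. A member was taken as well covered when no adenosine or cytidine within 25 nt lacked a value or stood at exactly 0 in either library. This held for 909 members (435 adenosines and 474 cytidines), and the other 929 (292 and 637) are described as near a gap. Read depth is not given, so nearness to a gap stands in for it, and an unreactive base cannot be told apart from a thinly read one at an exact 0. Sequence differed between the classes: the sequence from 25 nt before to 25 nt after a member had a median GC content of 56.9% when well covered and 72.5% near a gap. The median DMSO signal was 0.111 in the first class and 0.086 in the second.

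RiboBright listed fewer positions than DMSO, and these lay mostly in the expansion segments. DMSO listed 382 positions that RiboBright did not, 339 of them cytidines, and RiboBright listed 0 that DMSO did not. Of these 382, 78 stood at exactly 0 in DMSO, against 11 of the 1838 listed in both. Their DMSO signals were more spread, with quartiles of 0.031 and 0.328 against 0.053 and 0.226, around medians of 0.0995 and 0.099. Their surroundings had a median GC content of 82.4% against 60.8%. Of the 654 adenosines and cytidines without a RiboBright value, 604 (92.4%) lay in the stretches of expansion segments 7 and 27. In the expansion segment 7 stretch (positions 436 to 1311, GC content 83.1%), 88 of 435 positions were listed in both libraries, and 0 were well covered. In that of expansion segment 27 (2881 to 3600, 86.7%), 104 of 361 were listed and 3 were well covered. The 2 longest runs without a RiboBright value covered 433 to 929 and 3039 to 3515. Elsewhere, 36 were missing on the GTPase-centre side of domain II, 10 in domain I and 4 in domain VI.

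**Figure D1:**
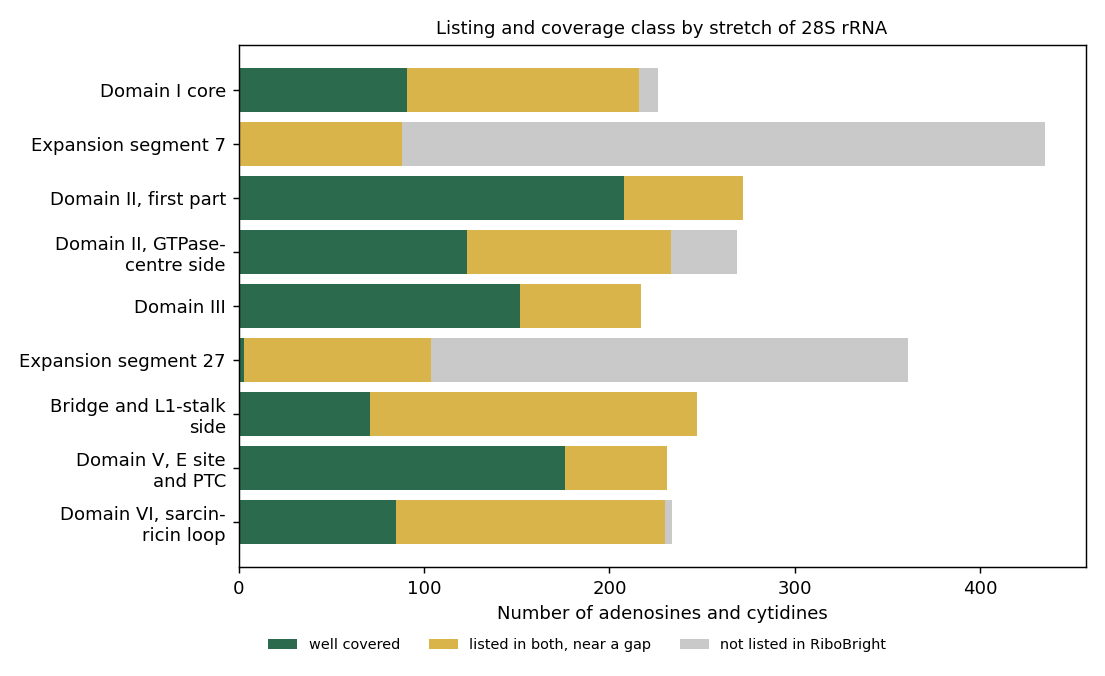
Number of adenosines and cytidines in each of 9 stretches of 28S rRNA (horizontal axis), divided into well covered, listed in both libraries but near a gap, and not listed in RiboBright. The first part of domain II has the most well-covered positions (208), and expansion segment 7 has 0.

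Exact 0 values also lay mostly in GC-rich sequence. RiboBright stood at 0 at 114 members, 98 of them cytidines, and DMSO at 11, all cytidines, of which 8 were 0 in both. The 114 had a median DMSO signal of 0.031 and a median GC content of 79.4% around them.

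RiboBright values were multiplied by 0.912, the ratio of the medians of values above 0 (0.104 in DMSO and 0.114 in RiboBright), before comparison. This lowered all RiboBright values by a shift of -0.13 on the log2 scale, against which changes are given. Changes are log2 ratios after a pseudocount of 0.0104 was added to both values, so those of low signals are understated. Among the 909 well-covered members the median log2 ratio was -0.06, with quartiles of -0.36 and 0.24, and 79.0% lay within 1.5-fold. Near a gap the median was -0.12 with quartiles of -0.68 and 0.29, and 56.1% lay within 1.5-fold. Log2 signals in the libraries had a Pearson correlation of 0.942 across well-covered members and 0.845 across those near a gap. Neighbouring positions share reads and are not independent replicates.

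**Figure D2:**
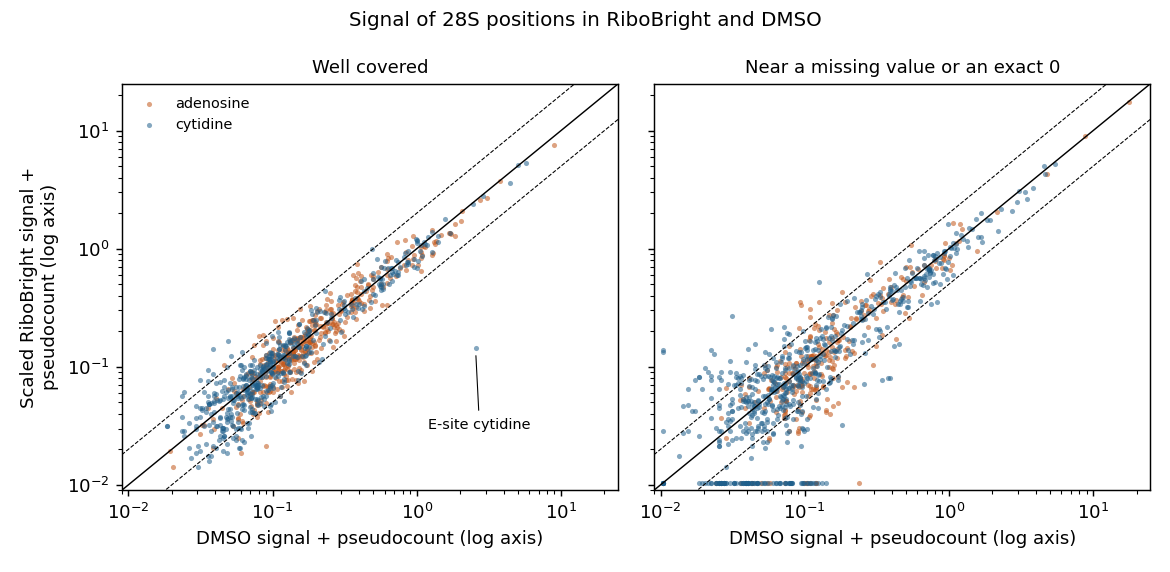
Scaled RiboBright signal against DMSO signal, both with the pseudocount added and on log axes, for adenosines and cytidines that were well covered (left) or near a gap (right). Solid and dashed lines mark equality and 2-fold. The E-site cytidine lies alone below the well-covered cloud, while RiboBright zeros form the row at the bottom of the right panel.

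The libraries lay closest where signal was high. By the mean signal of both libraries, the 85 well-covered members above the 90th percentile of DMSO (0.6631) had a robust standard deviation of the log2 ratio of 0.274. It was 0.361 between the 75th and 90th percentiles, 0.411 between the median and the 75th, and 0.599 below the median. A position was counted as called where its log2 ratio reached 2-fold in size and at least 1 of its 2 values, after scaling, reached a level floor of 0.24025. This floor is the upper quartile of DMSO. A member low in 1 library could thus pass it through its value in the other.

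Of 246 well-covered members past this floor, 3 were called (1.22%), 1 lower (0.407%) and 2 higher (0.813%). Near a gap 23 of 252 were called (9.13%), 12 lower (4.76%) and 11 higher (4.37%). The balance moved with the scaling. Without scaling, 1 was lower and 8 higher in the well-covered class, and 10 lower and 18 higher near a gap. Scaling by the 90th percentile gave 1 and 6, then 10 and 14, in the same order. Scaling adenosines and cytidines apart gave 1 and 6 among well-covered members, and scaling over positions above 0 in both libraries, or over well-covered positions, gave 1 and 4.

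**Figure D3:**
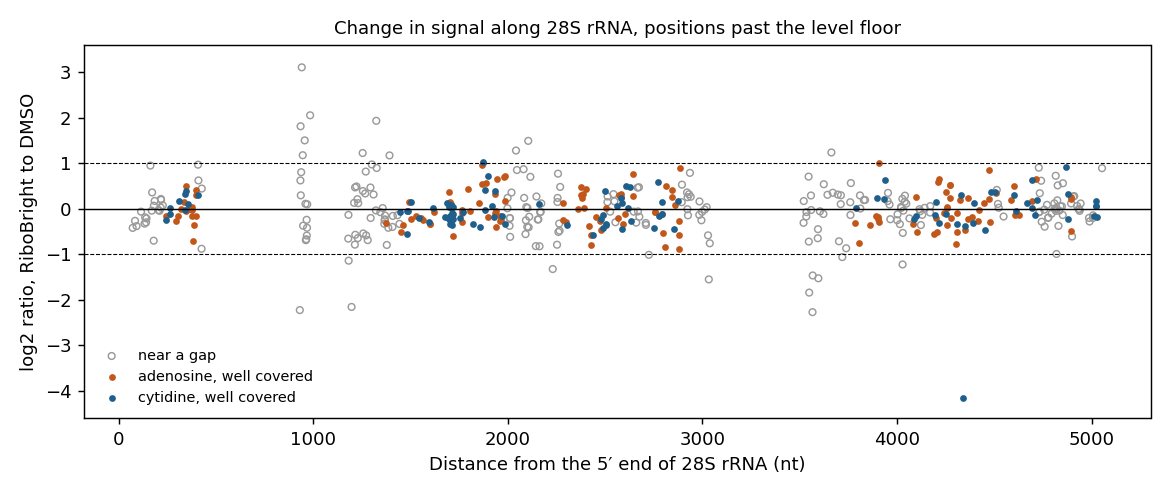
Log2 ratio of RiboBright to DMSO (vertical axis) at members past the level floor, by distance from the 5′ end of 28S rRNA. Filled points are well-covered adenosines and cytidines, open points lie near a gap, and dashed lines mark 2-fold. Apart from 1 cytidine at -4.16, the filled points lie between -0.89 and 1.03.

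The called lower position was C4341 of the E site, where cycloheximide is known to leave a footprint. Its signal was 2.564 in DMSO, 0.146 in RiboBright and 0.212 in cycloheximide. Among the 474 well-covered cytidines it ranked 5 in DMSO and 153 in RiboBright. Scaled RiboBright signal was 5.19% of that in DMSO, a log2 ratio of -4.16. All 23 adenosines and cytidines within 25 nt of it, itself included, had a value above 0 in both libraries, and the nearest gap was 181 nt away. The next lowest log2 ratio among well-covered members past the floor was -0.89, at A2882, with 53.0% of the DMSO signal left. The robust standard deviation over those 246 members was 0.340. Under the 7 planned and 1 later setting tried for it, the log2 ratio at C4341 lay between -4.27 and -4.04.

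Within 15 nt on either side of C4341, the other 12 adenosines and cytidines had a median log2 ratio of -0.07, with 6 higher and 6 lower in scaled signal. The strongly reactive C4327, 14 nt upstream, had 0.98 in DMSO, 1.319 in RiboBright and 1.009 in cycloheximide. C4349, 8 nt downstream, had 1.008, 0.851 and 0.969. Their log2 ratios were 0.29 and -0.37, and neither was called. The flanking C4342 had 0.036 in DMSO and 0.017 in RiboBright, and A4339 had 0.091 and 0.056, with log2 ratios of -0.84 and -0.72. The remaining 8 had DMSO signals from 0.027 to 0.266, so most bases of this window were little reactive in the control too. The lowest log2 ratio of the 12 was -1.20 at C4332 (0.045 and 0.015), and the highest was 0.41 at C4333 (0.027 and 0.043). These 4 ratios rest on low signals.

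**Figure D4:**
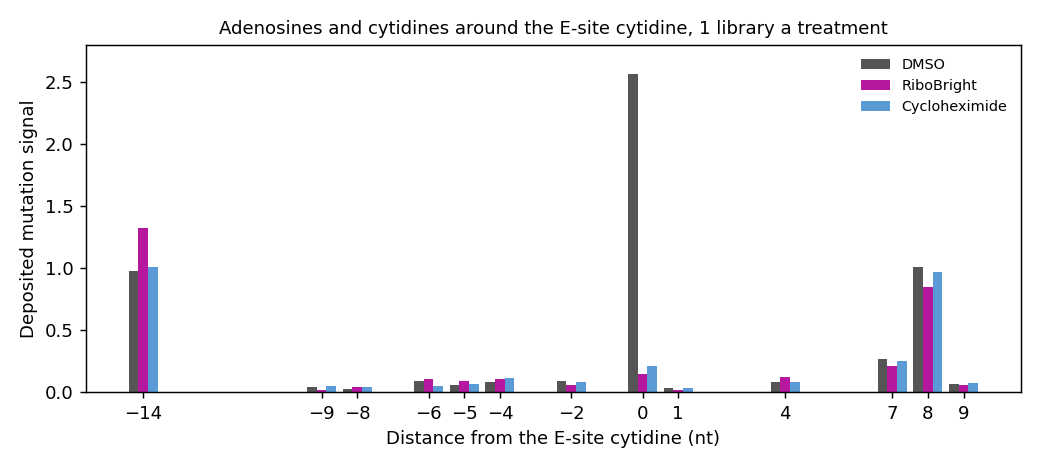
Deposited mutation signal (bars, linear axis from 0) of adenosines and cytidines within 15 nt of the E-site cytidine, in 1 library each of DMSO, RiboBright and cycloheximide. At distance 0 the DMSO bar stands at 2.564 and the other bars at 0.146 and 0.212, while the DMSO bars at -14 and 8, of 0.98 and 1.008, stand beside RiboBright bars of 1.319 and 0.851.

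The called higher positions were C1875 and A3906. C1875, on the GTPase-centre side of domain II, had 0.476 in DMSO, 1.080 in RiboBright and 0.517 in cycloheximide, and its rank among well-covered cytidines was 69 in DMSO and 20 in RiboBright. A3906, in the stretch of the subunit bridges and the L1 stalk, had 0.115, 0.266 and 0.131. Both log2 ratios were close to the 2-fold limit, at 1.03 and 1.01. The scaled RiboBright signal of A3906, 0.243, was also just past the floor. A3905, which directly precedes it, was among the 10 most reactive well-covered positions and differed little, with 3.06 in DMSO and 2.95 in RiboBright.

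With the size lowered to 1.5-fold, 26 of the 246 well-covered members past the floor were apart (10.6%), 17 higher (6.91%) and 9 lower (3.66%) in RiboBright. Adenosines made up 12 of the higher and 8 of the lower positions. As a share of those past the floor, 20 of 141 adenosines (14.2%) and 6 of 105 cytidines (5.71%) were apart. The robust standard deviation was 0.395 for adenosines and 0.285 for cytidines. The 17 and 9 moved to 32 and 7 without scaling, and to 24 and 7 both with the 90th percentile and with the bases scaled apart. Of the main 26, 24 were found again in each of those settings. Higher positions below the floor in DMSO were A1874, C1898, A1944, A2642, A2885, A3906, C3937, A4473, A4717 and C4871. Lower positions below it in scaled RiboBright were A1719, A2807, A3803, A4304 and C4341. These passed the floor in 1 library alone, so the balance of higher and lower rests in part on the values compared.

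The GTPase-centre side of domain II (1851 to 2400) held 7 of the 17 higher positions and 0 of the 9 lower ones, among 37 well-covered members past the floor. All 7 lay between A1868 and A1983. A1868 had 0.373 in DMSO, 0.801 in RiboBright and 0.375 in cycloheximide, and A1874, next to C1875, had 0.144, 0.326 and 0.127. C1898 had 0.173, 0.320 and 0.178. At A1868, A1874, C1875 and C1898 the cycloheximide value was thus near that of DMSO, and RiboBright stood above both. A1944 had 0.150, 0.264 and 0.122 in the same order. A1979 had 0.379, 0.677 and 0.392, and A1983 had 0.353, 0.640 and 0.458. These changes were not shared by all bases around them: over the 66 well-covered members from 1851 to 1987 the median log2 ratio was -0.0019, and 14 of the 26 past the floor were higher. A1964 in the same stretch, the most reactive well-covered position of 28S rRNA, had 8.974 in DMSO, 8.309 in RiboBright and 8.44 in cycloheximide. In the adjoining well-covered run from 1446 to 1850, 0 of 49 members past the floor were 1.5-fold higher and 1 was lower. The run from 1851 to 1987 was chosen after its values were seen. The runs also differed in base, with 16 adenosines among the 26 and 21 among the 49. Adenosines were 1.5-fold apart more often than cytidines over all well-covered members past the floor. Under the other 5 scalings the GTPase-centre side held between 7 and 11 positions 1.5-fold higher and 0 lower. Of the 7, A1874, C1898 and A1944 lay below the floor in DMSO and passed it through RiboBright alone. So did A1867 and A1888 among the 14 higher, while A1939, which was lower, passed through DMSO alone. The counts on this side thus rest in part on the values compared. Whether the 7 positions stand apart from the rest was not tested.

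**Figure D5:**
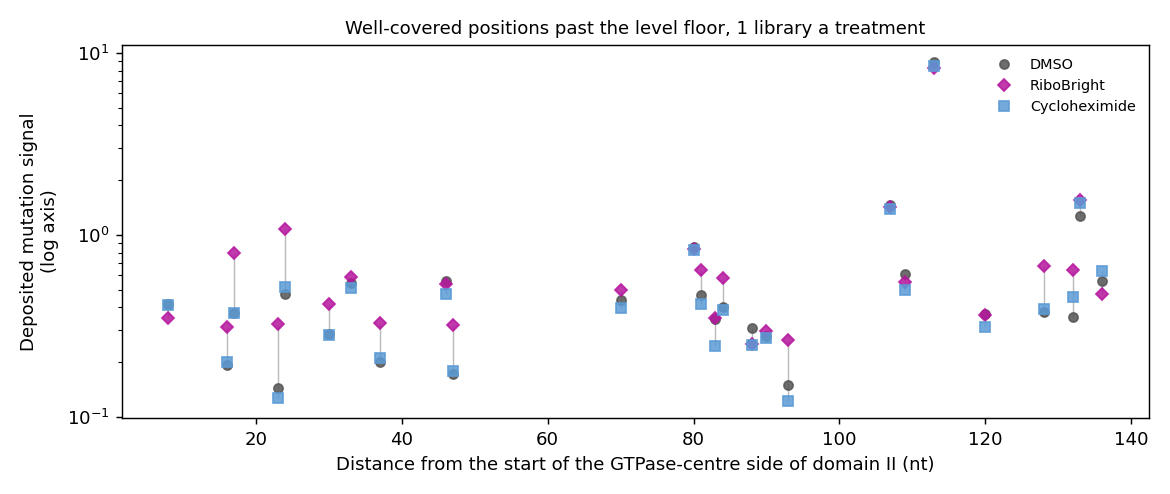
Deposited mutation signal (log axis) of the 26 well-covered members past the level floor at the start of the GTPase-centre side of domain II, by distance from its first nucleotide, with 1 point for each library. RiboBright stands above both other libraries at A1868, A1874, C1875, C1898, A1944, A1979 and A1983, and near them at A1964, the highest point. It also stands above both, by less than 1.5-fold after scaling, at points such as A1867, C1881, A1888, A1932 and C1935. At C1859 and C1987 it stands below both.

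In domain V, the other positions that were 1.5-fold apart besides C4341 were A4213, A4214 and A4473, which were higher, and A4304, which was lower. The adjacent A4213 and A4214 had 0.366 and 0.715 in DMSO, 0.609 and 1.242 in RiboBright, and 0.370 and 0.775 in cycloheximide. A4273, with 0.813, 1.285 and 0.860, and its neighbour A4274, with 0.614, 0.976 and 0.635, were higher by log2 ratios of 0.52 and 0.53 and did not reach 1.5-fold. A4274 was chosen after its value was seen. In each of these adjacent pairs both adenosines were higher in RiboBright than in either other library. A4473 had 0.171 in DMSO and 0.345 in RiboBright, and A4304 had 0.301 and 0.188.

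The lower positions other than C4341 were all adenosines, at log2 ratios from -0.89 to -0.59. A383 in domain I had 1.063 in DMSO, 0.705 in RiboBright and 1.038 in cycloheximide. In domain III, A2429 had 0.567, 0.354 and 0.523, and its neighbour A2428 had 0.463, 0.334 and 0.404. At the start of the expansion segment 27 stretch, A2882 had 0.611, 0.355 and 0.535. A2885, 3 nt downstream, was higher, with 0.129, 0.271 and 0.152. A1719, A2807 and A3803 completed the lower group, with 0.293, 0.250 and 0.267 in DMSO and 0.208, 0.149 and 0.169 in RiboBright. The higher group also held A2642, C3937, C4693, A4717 and C4871, whose DMSO signals lay between 0.191 and 0.523. C4693 in domain VI had 0.523 in DMSO, 0.893 in RiboBright and 0.307 in cycloheximide, so the libraries without RiboBright also differed there.

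Some well-covered positions had large differences in signal but small ratios. A1964 and C1594 had scaled differences of -1.39 and -0.81 and log2 ratios of -0.24 and -0.29. Their deposited values were 8.974 and 4.394 in DMSO and 8.309 and 3.928 in RiboBright, so part of these differences is the scaling. The 85 well-covered members above the 90th percentile had a median log2 ratio of -0.13, and 35.3% were higher. That median is close to the shift of -0.13 that the scaling applies. A1452 had 1.819 in DMSO, 1.399 in RiboBright and 1.782 in cycloheximide, a log2 ratio of -0.51. A1795 had 0.935, 1.396 and 0.892, a log2 ratio of 0.44. The 9 most reactive well-covered positions other than C4341, with DMSO signals from 2.446 at C340 to 8.974 at A1964, had log2 ratios between -0.29 and 0.02. They included C4252 (5.738 in DMSO, 5.774 in RiboBright), C3788 (5.055 and 5.605), A4424 (3.77 and 4.069), C4613 (2.851 and 3.036) and A4244 (2.732 and 2.8). Below the floor, 32 of 663 well-covered members were at least 2-fold lower and 18 at least 2-fold higher. In 27 of the 32 both values were under 0.104, and no difference among the lower and higher ones was larger than 0.141 in scaled signal.

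Of the functional sites outside the E site, C4398, A4548 and A4605 reached the floor and were not called. At the peptidyl transferase centre C4398 had 1.267 in DMSO and 1.517 in RiboBright, a log2 ratio of 0.13. A4397 had 0.142 and 0.124, both below the floor, and was not called. From such a DMSO level a fall could not be called, but a rise past the floor could. A4548 had 0.389 and 0.377, with 1 RiboBright value of 0 within 25 nt. A4605, the adenosine of the sarcin-ricin loop that ricin removes, had 0.480 and 0.474, a log2 ratio of -0.15. Among naturally methylated bases, the N1-methyladenosine A1322, whose methyl group blocks Watson-Crick pairing without any reagent, had 17.791 and 18.991 and was not called. It lies near a gap, with 3 RiboBright values of 0 within 25 nt, the nearest at the adjacent A1323. The N6-methyladenosine A4220 had 0.047 and 0.029, and the 5-methylcytidines C3782 and C4447 had 0.045 and 0.017, and 0.159 and 0.187. A4220, C3782 and C4447 lay below the floor in both libraries and were not called, and the log2 ratio of -1.10 at C3782 rests on low signals. A fall at them could not be called either.

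By stretch, the medians of well-covered members were close to 0. Of the 7 stretches with at least 10 well-covered members, 5 had a median log2 ratio below 0 and 2 above. The lowest was -0.13 in domain VI, over 85 members, followed by -0.12 in domain III, over 152. The first part of domain II had -0.07, domain V -0.06 and the GTPase-centre side -0.05. Domain I had 0.0091 and the stretch of the subunit bridges 0.02. Over the 12 settings tried, domain VI stayed below 0 (-0.15 to -0.0079) and domain III at or below 0 (-0.17 to 0). The first part of domain II, the GTPase-centre side and domain V turned above 0 under some scalings, to 0.05, 0.07 and 0.06 without scaling. Domain I and the subunit bridges stayed above 0 under every scaling and turned to -0.03 and -0.08 with missing values alone taken as gaps. Stretches differed more in how far their positions were spread. The robust standard deviation past the floor was 0.235 in domain I and 0.235 in the first part of domain II, where 98.0% of 50 members lay within 1.5-fold. It was 0.464 on the GTPase-centre side (37 members) and 0.467 in domain III (48 members), where 81.1% and 91.7% lay within 1.5-fold. In the stretch of the subunit bridges (16 members) it was 0.252, with 81.25% within 1.5-fold. The order of the stretches by spread thus depends on the measure.

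Medians by the base next to a member lay close together. Among well-covered adenosines, the median log2 ratio by the base on the 5′ side ran from -0.13 after C (89 members) to 0.0026 after U (65 members). Among cytidines it ran from -0.08 after C to -0.0058 after A. By the base on the 3′ side, medians ran from -0.16 to -0.06 for adenosines and from -0.11 to 0.03 for cytidines. The distance between quartiles within a group was several times these differences.

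The 23 positions called near a gap are set apart because the values around them were missing or 0. Of these, 22 had a RiboBright value of 0 within 25 nt and 12 had a missing one, while 0 had a missing DMSO value there. Such values define the class, and RiboBright held more of them than DMSO, with 114 members at exactly 0 against 11. These counts therefore do not set the called positions apart from the other members near a gap. The part of few reads in the 23 called changes was not tested. Of the 86 adenosines near a gap past the floor, 8 were called higher and 4 called lower. Of the 166 such cytidines, 3 were called higher and 8 called lower. The called positions were placed mainly in the expansion segments, with 6 higher and 3 lower in the stretch of segment 7 and 5 lower in that of segment 27. These stretches held 88 and 101 of the 929 members near a gap. How many of those passed the floor is not given here.

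Among the lower ones, C4029 had 0.820 in DMSO, 0.378 in RiboBright and 0.800 in cycloheximide. None of the 24 adenosines and cytidines around it lacked a value, and 3 were at 0 in RiboBright. C1182 had 0.737, 0.360 and 0.738, with 3 missing and 7 at 0 of 20. C3566 had 0.379, 0.077 and 0.503, with 11 of 25 at 0, and C3033 had 0.443, 0.158 and 0.542, with 13 missing and 4 at 0 of 35. C4029 thus had the best measured surroundings of these 4. The cytidines lie in GC-rich sequence, given here to show how GC-rich it is, with the member in capitals.
C4029 (4014 to 4044): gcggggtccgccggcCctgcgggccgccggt
C1182 (1167 to 1197): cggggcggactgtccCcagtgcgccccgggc

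Among the higher ones, A1254 had 0.322 in DMSO, 0.838 in RiboBright and 0.506 in cycloheximide, with 8 missing and 5 at 0 of 26. C984 had 0.116, 0.562 and 0.335, with 16 missing and 6 at 0 of 33. C946 had 0.258, 0.652 and 0.269, with 9 missing and 2 at 0 of 30. A1324 had 0.082, 0.374 and 0.032, with 3 at 0 and 0 missing of 32, and lies 2 nt from A1322. At C946 and A1324 RiboBright alone was high, while at A1254 and C984 cycloheximide lay between DMSO and RiboBright.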

How the data were processed

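Per the labels' protocols, total RNA of HEK293 cells was copied by TGIRT-III reverse transcriptase with random hexamer primers, and libraries followed the NEBNext Ultra II procedure. The deposited values are a mutation signal per nucleotide of 28S rRNA, given for adenosine and cytidine alone and never negative. The submitters' processing notes name hg38, cutadapt and Bowtie2 with no role. How mutations were counted and normalized, and any coverage minimum or background subtraction, is not given in the sources used here. Read depth is not given either, so no counting interval is given, and no untreated RNA is analysed here. The series table and each library's own file held the same values at all 5070 positions, and 0 columns of per-sample values were left out.

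RiboBright values were multiplied to give the same median as DMSO over values above 0, and a pseudocount of 10% of the DMSO median was added before log2. The robust standard deviation is the scaled median absolute deviation. A position was called at 2-fold or more where the higher value reached the 75th percentile of DMSO. Stretches needed 10 well-covered members. Named were all well-covered called positions, the 5 largest differences a direction that were not called, the 4 largest called a direction near a gap, the functional and methylated sites and the 10 most reactive well-covered positions. The naming of positions 1.5-fold apart, the run from 1851 to 1987 and the bases near C4341 were added after their values were seen. Members, sites and lists were chosen with earlier results of these data known. Alternatives covered scaling, pseudocount, coverage class, floor and size of change. Scripts ran in Python 3.11.15 with numpy 2.4.6, pandas 2.3.3 and matplotlib 3.10.9 and were tested on simulated data.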

Additional observations from a re-analysis of the deposited data

How the results depend on the processing

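No paired analysis was possible because each treatment has 1 library and the labels give no replicate numbers. The log2 ratio at C4341 (-4.27 to -4.04 over 8 alternatives) and the robust standard deviation over well-covered positions (0.277 to 0.446 over 13) moved by less than 1 robust standard deviation and 1.5 times, respectively. The well-covered count of 3 called positions was 2 to 4 under 5 alternatives. It moved to 9 without scaling, 7 with the 90th percentile or with the bases scaled apart, and 5 with scaling over positions above 0 in both libraries, over well-covered positions, or with the gap distance at 10 nt. It moved to 14 with missing values alone as gaps, 19 with the floor at the DMSO median, 53 without a floor, 26 at 1.5-fold and 1 at 3-fold. C4341 was called under all 16 settings, C1875 under 15 and A3906 under 13. The 23 calls near a gap were 21 to 28 under 9 alternatives, and 12 with missing values alone, 73 with the floor at the DMSO median, 3 at the 90th percentile, 232 without a floor, 64 at 1.5-fold and 8 at 3-fold. Medians by stretch moved by less than the semi-interquartile range of their positions. Plain ratios without a pseudocount, and 1.5-fold under other scalings, were chosen after the data were seen. Depth is not given, so a low signal and a thinly read one cannot be told apart.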
